A study of Homo sapiens with 4 samples.

Results

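The tubulin genes described here are the 10 rows of the deposited T24 expression table, among 47432 rows in all, whose name is TUBA1A, TUBA1B, TUBA1C, TUBB, TUBB2A, TUBB2B, TUBB3, TUBB4B, TUBB6 or TUBG1. They were chosen by name and by their place in the microtubule, as a counterpart to the actin genes, and not by their values. Earlier results of these data were, however, known when they were chosen. T24 is an established cell line from an invasive bladder carcinoma. RNA-seq was made from 2 control libraries and 2 libraries of cells given isorhapontigenin (ISO), a plant stilbene, at 20 µM for 24 h. According to the labels the control cells were untreated, whereas the methods of the study name dimethyl sulfoxide as vehicle, and the labels and the methods name different culture media. ISO was dissolved in dimethyl sulfoxide, so if the control cells had none, ISO and its vehicle cannot be told apart. All 4 libraries come from the same line, and no further treatment is named. Whether libraries a and b of a group are separate cultures is not given in the sources used here. The p-values therefore reflect how far these libraries lie apart, and that distance may be technical. Whether ISO changed tubulin mRNA, beside the actin mRNAs, is the question of the comparison.

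Microtubules are hollow polymers of alpha- and beta-tubulin dimers. They carry vesicle traffic, shape the cell and form the mitotic spindle, and gamma-tubulin nucleates them at the centrosome. Vertebrate cells hold several genes, called isotypes, for alpha- and for beta-tubulin, which differ mostly in the acidic tail at the end of the protein. Cells also adjust tubulin mRNA to the amount of unpolymerized tubulin: TTC5 binds the first residues of a nascent alpha- or beta-tubulin chain on the ribosome and, with SCAPER and the CCR4-NOT deadenylase, has the mRNA degraded. Drugs of the vinca and taxane classes act on beta-tubulin.

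The start of the coding sequence, which encodes the residues that TTC5 reads, is shown for the 10 genes because it sets the alpha and beta genes apart from TUBG1. The first 30 coding bases of the canonical transcript are printed 5′ to 3′, spliced, with the first 12 (the start codon and the next codons) in capitals.
TUBA1A: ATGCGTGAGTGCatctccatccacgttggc
TUBA1B: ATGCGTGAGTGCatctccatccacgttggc
TUBA1C: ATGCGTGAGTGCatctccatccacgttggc
TUBB: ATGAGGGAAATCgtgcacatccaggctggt
TUBB2A: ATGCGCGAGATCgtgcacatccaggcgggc
TUBB2B: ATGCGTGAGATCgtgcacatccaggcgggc
TUBB3: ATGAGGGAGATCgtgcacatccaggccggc
TUBB4B: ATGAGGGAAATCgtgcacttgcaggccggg
TUBB6: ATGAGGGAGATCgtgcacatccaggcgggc
TUBG1: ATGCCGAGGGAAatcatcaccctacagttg
The 3 alpha genes share 1 spelling of these 12 bases. The 6 beta genes use 4 spellings that all encode the same 4 residues. TUBG1 encodes a different start.

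The ends of the coding sequence are shown for the 3 beta genes with the highest levels below, because this stretch encodes part of the isotype tail. The last 30 coding bases are printed 5′ to 3′ with the stop codon in capitals.
TUBB: ttcggtgaggaggccgaagaggaggccTAA
TUBB4B: gaggaggaggctgaggaggaggtggccTAG
TUBB6: gaggatgaggaagaggagatcgatggaTAG
TUBB, TUBB4B and TUBB6 each differ from the others over this stretch. Over the whole coding sequence TUBA1A and TUBA1B were 97.2% identical, TUBA1B and TUBA1C 96.8%, and TUBB2A and TUBB2B 98.1%. TUBB and TUBB4B, the most abundant beta genes here, were 84.4% identical.

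On hg38 the alpha genes lie side by side on chromosome 12. TUBA1B spans chr12:49127782-49131397 and TUBA1A spans chr12:49184686-49189080, both on the minus strand. TUBA1C spans chr12:49188736-49274600 on the plus strand, and its exons share 345 bases with those of TUBA1A. TUBB spans chr6:30717435-30725538 on the plus strand, while TUBB2A at chr6:3153497-3157544 and TUBB2B at chr6:3223324-3231730 are neighbors on the minus strand. TUBB3 spans chr16:89921392-89938761, TUBB4B chr9:137241287-137243707, TUBB6 chr18:12307669-12344320 and TUBG1 chr17:42609641-42615238, all on the plus strand. The alpha and beta genes have 4 coding exons each and TUBG1 has 11.

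Values are RPKM as the authors deposited them, that is, reads on the exons of a gene scaled to exon length and to the mapped reads of the library, and where values come in pairs library a is given before b. Reads were recovered by multiplying RPKM by GENCODE exon lengths, and at least 98.8% of values above 0 came within 0.05 of a whole read. The libraries held 32349827 to 42879427 recovered gene reads. The 10 tubulin genes took 0.874% and 0.890% of them in control, and 0.836% and 0.791% in ISO. Both ISO libraries were thus below both control libraries in the tubulin share of all gene reads. The keratins KRT7, KRT8 and KRT18 were above 100 RPKM in every library. Of the 11 epithelial markers listed, however, only 7 reached a mean of 0.1 RPKM and 5 a mean of 1 RPKM. KRT5 was at 0 RPKM in every library, and CDH1 was at 0.0049 RPKM in ISO b and 0 elsewhere. The 11 epithelial markers summed to 836 to 847 RPKM in control and 720 to 730 RPKM in ISO, and 3 of the 7 tested (KRT7, KRT18 and KRT19) were called lower, beside 4.12% of all tested genes (9.3% were called higher). None of 5 neuron markers reached a mean of 0.1 RPKM. Leukocyte markers summed to 2.98 to 3.67 RPKM and fibroblast markers to 0.750 to 0.990 RPKM over the 4 libraries. Endothelial markers summed to 17.7 to 17.8 RPKM in control and 14.2 to 14.7 RPKM in ISO, nearly all from CDH5, which fell (limma adjusted p = 0.0075). The part of other cells in the tubulin values was not tested, and in bulk RNA fewer cells of a kind and less RNA per cell cannot be told apart.

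TUBA1B, the widely expressed alpha-tubulin gene, had the highest level of the 10. It was at 868 and 897 RPKM in control and at 812 and 754 RPKM in ISO. Both ISO libraries were below both control libraries, with means of 883 ± 20.5 RPKM (SD, n = 2) in control and 783 ± 40.9 RPKM (SD, n = 2) in ISO. TUBA1C, a second ubiquitous alpha gene, was at 189 and 191 RPKM in control and at 184 and 171 RPKM in ISO. TUBA1A, the alpha gene most abundant in developing neurons, was at 60.4 and 56.6 RPKM in control and at 56.5 and 55.6 RPKM in ISO. The ISO values of TUBA1C and TUBA1A were also the lower ones, but for TUBA1A the nearest control and ISO libraries were almost level.

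TUBB, the main beta-tubulin gene of proliferating cells, was at 555 and 558 RPKM in control and at 510 and 491 RPKM in ISO. The control libraries lay close together, at 556 ± 2.22 RPKM (SD, n = 2), and both ISO libraries lay below them, at 500.5 ± 13.0 RPKM (SD, n = 2). TUBB4B, another broadly expressed beta gene that is also used in cilia, was at 498 and 510 RPKM in control and at 543 and 511 RPKM in ISO. TUBB4B thus went the other way, but control b and ISO b lay within 1 RPKM of each other. TUBB6, a widely expressed and more divergent beta gene, was at 139 and 141 RPKM in control and at 131 and 124 RPKM in ISO, so that the groups did not overlap.

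TUBB3, the neuronal beta isotype that is also found in many carcinoma lines, was at 23.4 and 21.9 RPKM in control and at 21.5 and 20.5 RPKM in ISO. TUBB2A was at 19.0 and 18.9 RPKM in control and at 18.7 and 18.3 RPKM in ISO. TUBB2B, its near-identical neighbor, had the fewest reads of the 10, at 56 and 49 recovered reads in control and at 41 and 53 in ISO. TUBB3 and TUBB2A were slightly lower in both ISO libraries, and the TUBB2B groups overlapped. TUBG1, the main gamma-tubulin gene, was at 32.4 and 32.6 RPKM in control and at 33.4 and 35.1 RPKM in ISO, higher in both ISO libraries.

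**Figure D1:**
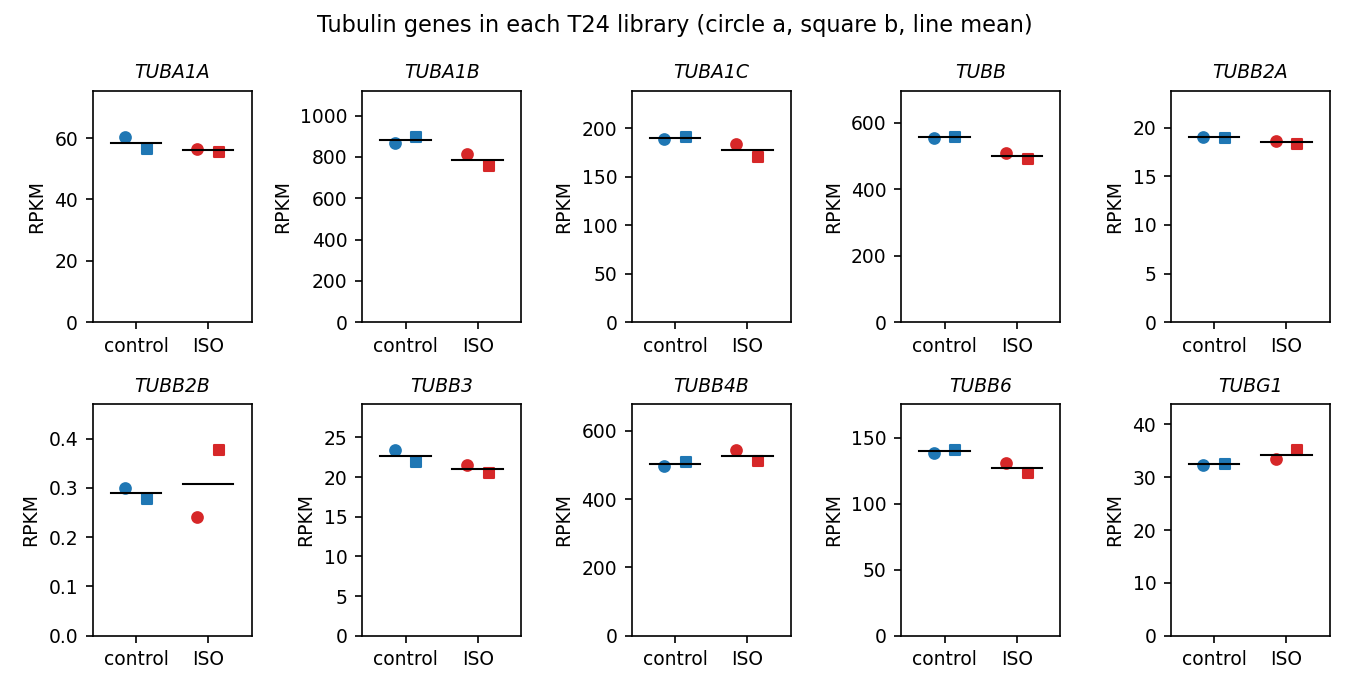
RPKM of each of the 10 tubulin genes (y axis, linear from 0, own scale per gene) in control and ISO libraries; circles are library a, squares library b, and lines the mean of 2 libraries. TUBA1B, TUBB and TUBB6 sit lower in both ISO libraries, TUBB4B and TUBG1 slightly higher, and the TUBB2B points overlap.

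By mean RPKM the order in control was TUBA1B, TUBB, TUBB4B, TUBA1C, TUBB6, TUBA1A, TUBG1, TUBB3, TUBB2A and TUBB2B, and no neighbors in that order overlapped between libraries. In ISO the only exchange was that TUBB4B stood above TUBB, with 511 RPKM in its lower library against 510 RPKM in the higher library of TUBB. The order between genes depends on the exon length used, which ran from 2037 bases for TUBB4B to 7421 bases for TUBB3. By recovered reads TUBB was above TUBB4B in all 4 libraries, at 101166 against 45444 reads in control a and 67765 against 35239 reads in ISO b.

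The 2 ISO libraries were tested against the 2 control libraries by limma, on log2(RPKM + 0.1), in the 15304 genes with a mean of at least 0.1 RPKM, which included all 10 tubulin genes, with Benjamini-Hochberg adjustment over all of them. TUBB alone passed an adjusted p under 0.05. It fell by 0.15 on the log2 scale (standard error, SE, 0.034, 95% interval -0.23 to -0.07, limma adjusted p = 0.036), which is a change of -10.1%. Thus 1 of 10 tubulin genes was called lower and 0 were called higher, where 4.12% of all tested genes were called lower and 9.3% were called higher. At an unadjusted p under 0.05 from limma, 3 of the 10 were lower and 0 higher, where 8.57% of all tested genes were lower and 22.2% higher. The call of TUBB was lost without any 1 of the 4 libraries (adjusted p = 0.077 to 0.14 from limma), as did testing without the filter on low genes (limma adjusted p = 0.16).

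TUBA1B and TUBB6 had changes of similar size that did not pass. The log2 fold change of TUBA1B was -0.17 (SE 0.046, 95% interval -0.29 to -0.06, limma adjusted p = 0.057) and that of TUBB6 was -0.13 (SE 0.037, 95% interval -0.22 to -0.04, limma adjusted p = 0.066). For TUBB3 the log2 fold change was -0.11 and for TUBA1C -0.10 (limma adjusted p = 0.18 and 0.17). TUBA1A and TUBB2A had -0.06 and -0.04 (limma adjusted p = 0.35 and 0.47). TUBB2B had 0.05, with the widest interval of the 10 (-0.47 to 0.57, limma adjusted p = 0.90).

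TUBB4B and TUBG1 had positive log2 fold changes of 0.06 and 0.08 that did not pass (95% intervals -0.03 to 0.16 and -0.01 to 0.16, limma adjusted p = 0.34 and 0.21). The RPKM were not scaled for composition, and the median log2 fold change of all tested genes was 0.06, so these values lie near the middle of all genes. With TMM scaling, which the study used for its own test, that median was -0.0011 and the log2 fold changes of TUBB4B and TUBG1 were 0.0017 and 0.01. The split of calls over all genes also turned with the scaling, from 69.3% higher to 40.9% higher with TMM.

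Of the 10 tubulin genes, 7 were lower in both ISO libraries than in both control libraries and 2 were higher, with TUBB2B overlapping. Among all tested genes, the groups did not overlap in the lower direction for 18.3% and in the higher direction for 41.9%. The median log2 fold change of the 10 was -0.08, beside 0.06 for all tested genes.

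The number of tubulin genes past the threshold depended on the scaling and the test. With TMM scaling TUBB was the only one of the 10 called lower, at a log2 fold change of -0.21 (limma adjusted p = 0.045), where 5.73% of all genes were called lower and 3.96% higher. TUBB6 and TUBA1B did not pass there (limma adjusted p = 0.052 and 0.064). With median-of-ratios scaling TUBB and TUBB6 were called lower, 2 of 10, where 5.81% of all genes were called lower and 4.25% higher. In a further fit, limma-voom with TMM on the recovered reads called TUBB, TUBA1B, TUBB6, TUBB3 and TUBA1C lower (5 of 10, none higher), where it called 10.3% of all genes lower and 8.04% higher. In that fit the log2 fold changes were -0.21 for TUBB, -0.24 for TUBA1B, -0.19 for TUBB6, -0.17 for TUBB3 and -0.16 for TUBA1C (adjusted p = 0.0010, 0.0010, 0.0031, 0.015 and 0.015 from limma-voom). TUBB4B stood at 0.0026 and TUBG1 at 0.02 there.

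**Figure D2:**
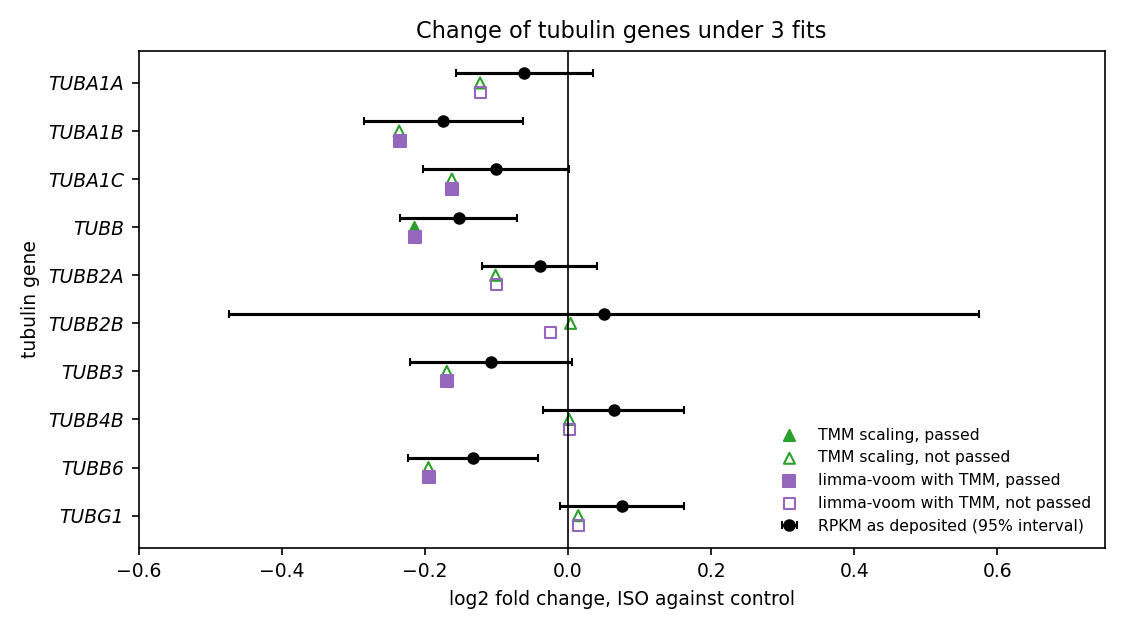
Log2 fold change of ISO against control (x axis) for each tubulin gene, as circles with 95% intervals for the RPKM as deposited, triangles for TMM scaling and squares for limma-voom with TMM (filled where the adjusted p is under 0.05). TUBB lies at -0.15 as deposited and -0.21 with either TMM fit, whereas TUBB4B moves from 0.06 to 0.0017 and 0.0026.

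The 2 libraries of a group differed by more than counting error for the abundant genes. For TUBA1B, whose reads ran from 91275 to 138955, counting alone gives a coefficient of variation of 0.309% in ISO, and the observed one was 5.23%. For TUBB in ISO the observed value was 2.60% against 0.362% from counting. In control TUBB varied by 0.400%, close to its counting error of 0.318%. ISO b, the library with the fewest reads, had the lowest level of all 7 genes that were lower in both ISO libraries. These were TUBA1A, TUBA1B, TUBA1C, TUBB, TUBB2A, TUBB3 and TUBB6. The part of the depth of ISO b in these values was not tested.

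Shares within a library do not depend on the scaling between libraries. Among the summed RPKM of the 6 beta genes, TUBB made up 44.9% and 44.7% in control and 41.6% and 42.2% in ISO. TUBB4B made up 40.3% and 40.8% in control and 44.4% and 43.8% in ISO. The largest and the second beta isotype by RPKM thus changed places, by -2.90 percentage points for TUBB and 3.52 for TUBB4B, without overlap between groups. TUBB6 went from 11.2% ± 0.00418 (SD, n = 2) to 10.7% ± 0.0699 (SD, n = 2). TUBB3, TUBB2A and TUBB2B together made up a few percent, and their groups overlapped.

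The ratio of TUBB4B to TUBB was 0.898 and 0.913 in control and 1.07 and 1.04 in ISO, a difference of 0.22 on the log2 scale. With 2 libraries against 2, the exact two-sided permutation test cannot give a p below 0.333, which it gave for this ratio and for the shares of TUBB, TUBB4B and TUBB6. Among the 3 alpha genes the shares moved by 1 percentage point or less. TUBA1B made up 77.7% and 78.4% in control and 77.1% and 76.9% in ISO. TUBA1C made up 16.9% and 16.7% in control and 17.5% and 17.4% in ISO, and the groups of TUBA1A overlapped.

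**Figure D3:**
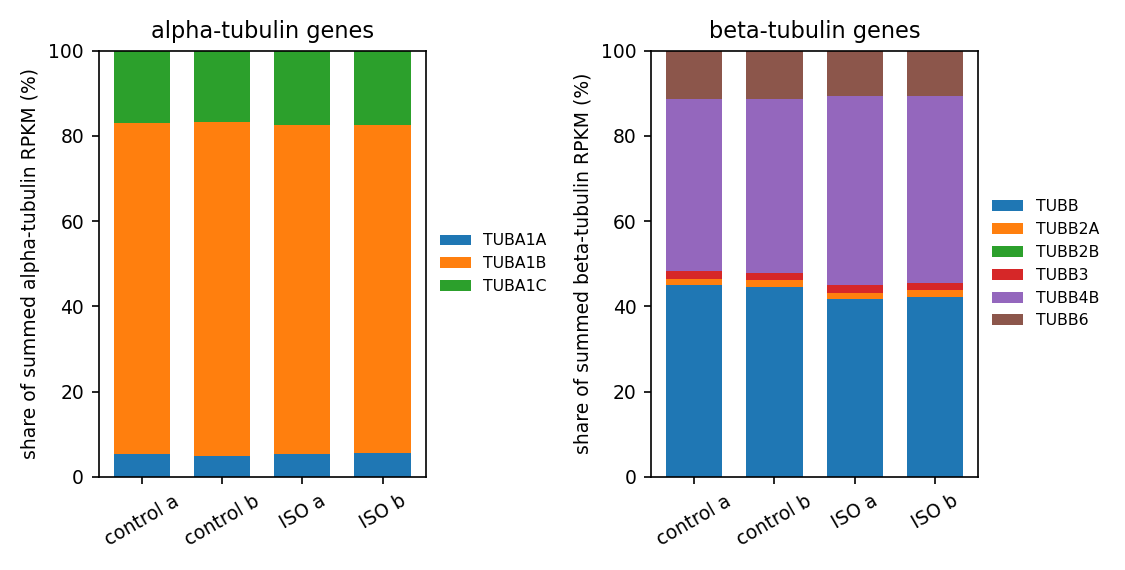
Share of each gene in the summed RPKM of the 3 alpha-tubulin genes (left) and the 6 beta-tubulin genes (right), in percent, with 1 stacked bar per library. The share of TUBB4B is 40.3% and 40.8% in control and 44.4% and 43.8% in ISO, and that of TUBB is lower in both ISO libraries.

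Summed over its 3 genes, alpha-tubulin was at 1131 ± 19.3 RPKM (SD, n = 2) in control and 1016 ± 51.0 RPKM (SD, n = 2) in ISO. Summed over its 6 genes, beta-tubulin was at 1242 ± 10.5 RPKM (SD, n = 2) in control and 1194 ± 42.2 RPKM (SD, n = 2) in ISO. The ratio of alpha to beta was 0.905 and 0.916 in control and 0.859 and 0.841 in ISO, so that both ISO libraries were below both control libraries (exact two-sided permutation p = 0.333, n = 2, the smallest this design allows).

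Near-identical copies limit how reads are assigned among these genes. Every 50-base window of the exons, the length of 1 read end, was looked up in the primary chromosomes of hg38 on both strands. In TUBB6, 99.4% of the windows occurred once, and in TUBB4B 91.1% and TUBB 85.5% did. TUBB windows found elsewhere lay mostly in the pseudogene TUBBP1, which held 9.24% of all TUBB windows. Of the alpha genes, TUBA1B had 72.9% of windows occurring once, and 16.9% of its windows also lay in TUBA1A and 16.2% in TUBA1C. TUBB2A had the lowest value, 54.4%, with 33.7% of its windows in TUBB2B. Windows were matched exactly and paired ends were not considered, and how the authors placed reads with several matches is not given in the sources used here. All annotated exon bases, coding or not, counted equally whether or not they drew reads. No window crossed a splice junction, so the percentages are not shares of reads.

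**Figure D4:**
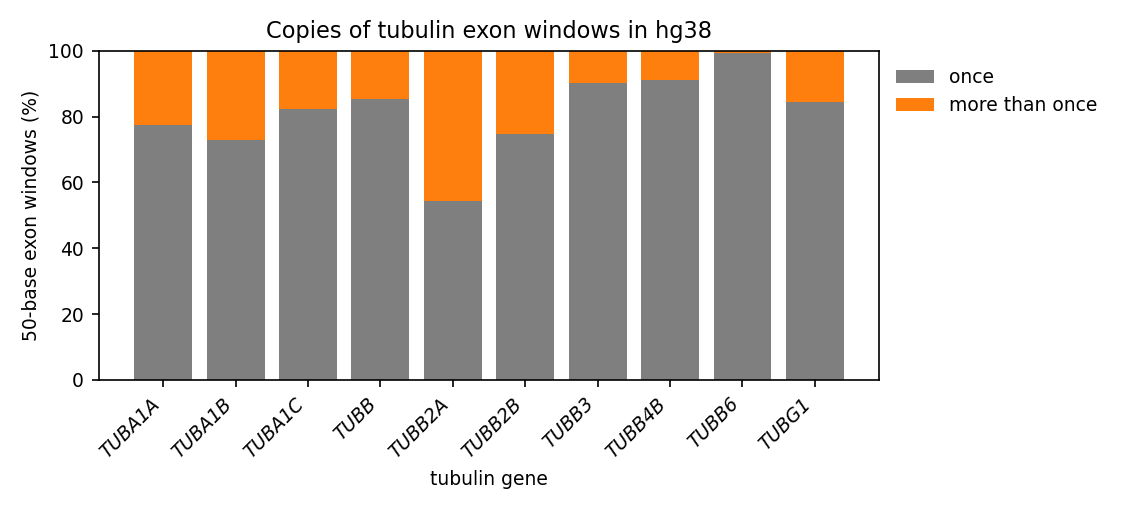
Percent of the 50-base exon windows of each tubulin gene (y axis) that occur once (grey) or more than once (orange) in the primary chromosomes of hg38. TUBB6 is nearly all grey, at 99.4%, and TUBB2A has the smallest grey part, at 54.4%.

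Some exons also overlap other genes, and no source used here says that counting used strand. For TUBB6, 837 exon bases overlap those of AFG3L2 on the opposite strand, which is 21.2% of the exon bases of TUBB6, and AFG3L2 was at 11.4 to 13.4 RPKM. For TUBA1B, 1571 exon bases (43.96%) overlap an antisense RNA (TUBA1B-AS1), whose row was at 0.532 to 0.737 RPKM. For TUBA1C, 666 exon bases (14.95%) overlap a long non-coding RNA on the opposite strand. Its row held 0 and 22 reads in control and 0 and 38 reads in ISO. For TUBB3, 1584 exon bases (21.3%) overlap a gene on the same strand, whose row held 17 reads in control a and 0 in the other libraries. For TUBG1, 174 exon bases overlap RETREG3, at 14.7 to 15.2 RPKM. For TUBB, 538 exon bases (13.2%) overlap a long non-coding RNA on the opposite strand, whose row was at 0.433 to 0.602 RPKM, and 13 overlap MDC1, at 5.33 to 5.85 RPKM.

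Of 13 other tubulin genes, 6 were tested, and 1 was called lower and 0 higher (4.12% and 9.3% over all tested genes). TUBAL3, a divergent alpha-tubulin-like gene, fell from 1.31 and 1.01 RPKM in control to 0.751 and 0.675 RPKM in ISO (log2 fold change -0.63, SE 0.14, limma adjusted p = 0.037). TUBA4A, a further alpha gene, was at 24.6 and 24.9 RPKM in control and at 23.7 and 23.9 RPKM in ISO (limma adjusted p = 0.27). TUBB4A, an isotype of the brain, and TUBD1, which encodes the centriolar delta-tubulin, had log2 fold changes of 0.26 and 0.21 (limma adjusted p = 0.15 and 0.13). TUBE1, which encodes epsilon-tubulin, and TUBG2 had -0.09 and -0.04 (limma adjusted p = 0.72 and 0.68). TUBA3C, TUBA3D, TUBA3E, TUBA4B, TUBA8, TUBB1 and TUBB8 were below the mean of 0.1 RPKM. TUBA3C had 0 reads in every library, which allows up to 3 reads in each. The call of TUBAL3 ended without any 1 of the 4 libraries (adjusted p = 0.054 to 0.15 from limma).

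Of 13 tested genes of the gamma-tubulin ring complex and its anchors, which act beside TUBG1, 1 was called lower and 1 higher. Over all tested genes 4.12% were called lower and 9.3% higher. The median log2 fold change of the 13 was 0.08, beside 0.06 for all tested genes. TUBGCP2, a core subunit of the complex, was at 10.3 and 9.86 RPKM in control and at 8.31 and 8.22 RPKM in ISO (log2 fold change -0.29, SE 0.042, limma adjusted p = 0.013). On the RPKM as deposited, which were not scaled for composition, TUBGCP2 was the only one of the 13 with a log2 fold change below 0. MZT2B, a small subunit, was at 59.3 and 62.0 RPKM in control and at 68.9 and 70.3 RPKM in ISO (log2 fold change 0.20, SE 0.035, limma adjusted p = 0.020). With TMM scaling TUBGCP2 kept its call (limma adjusted p = 0.010) and MZT2B did not (limma adjusted p = 0.069). Limma-voom with TMM called TUBGCP2 lower and MZT2B higher (adjusted p = 9.4e-06 and 0.029 from limma-voom). These were 1 and 1 of 13, where that fit called 10.3% and 8.04% of all genes.

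Of 20 tested genes of tubulin folding (the CCT chaperonin, prefoldin and the tubulin cofactors), none was called lower and 1 was called higher. At an unadjusted p under 0.05 from limma 2 were lower and 3 higher, and the median log2 fold change was 0.01. Over all tested genes 4.12% were called lower and 9.3% higher, and 8.57% and 22.2% were lower and higher at the unadjusted threshold. These counts therefore do not set the folding genes apart. The gene called higher was ARL2, a small GTPase that works with the cofactors (log2 fold change 0.20, limma adjusted p = 0.032). Limma-voom called CCT4, CCT5 and CCT8, subunits of the chaperonin, lower and ARL2 higher, 3 and 1 of 20, where that fit called 10.3% and 8.04% of all genes. Of 12 tested genes of tubulin mRNA decay, none was called lower and CNOT11, a subunit of CCR4-NOT, was called higher (log2 fold change 0.20, limma adjusted p = 0.031). TTC5 and SCAPER had log2 fold changes of 0.07 and -0.13 (limma adjusted p = 0.58 and 0.54). At an unadjusted p under 0.05 from limma, 0 of the 12 were lower and 3 higher (8.57% and 22.2% over all tested genes), and limma-voom called 1 lower (CNOT8, a deadenylase) and 0 higher (10.3% and 8.04% of all genes in that fit).

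Of 18 tested enzymes that modify tubulin, 0 were called in either direction by limma (4.12% lower and 9.3% higher over all tested genes), with 0 lower and 2 higher at an unadjusted p under 0.05 (8.57% and 22.2%). Limma-voom, which tested 19 of these enzymes, also called 0 (10.3% and 8.04% of all genes in that fit). TTL, the ligase that adds the final tyrosine of alpha-tubulin, had a log2 fold change of 0.18 (limma adjusted p = 0.082). Of 29 tested microtubule-binding genes, none was called lower and 2 were called higher (4.12% and 9.3% over all tested genes). At an unadjusted p under 0.05 from limma 2 were lower and 3 higher (8.57% and 22.2% over all tested genes). Limma-voom, which tested 31 of this list, called 5 lower and 2 higher (10.3% and 8.04% of all genes in that fit). The 5 lower were CAMSAP2, CAMSAP3, MAP4, MAP7D1 and STMN3, and the 2 higher were STMN1 and MAP2, which was not among the 29. STMN1, stathmin, which sequesters tubulin dimers, was at 76.0 and 78.0 RPKM in control and at 90.2 and 88.3 RPKM in ISO (log2 fold change 0.21, SE 0.031, limma adjusted p = 0.013). STMN3 of the same list went the other way, at 203 and 189 RPKM in control and at 176 and 177 RPKM in ISO. Its log2 fold change of -0.15 did not pass (limma adjusted p = 0.067), but it was called lower with median-of-ratios scaling and by limma-voom. MAPRE1, which encodes the plus-end protein EB1, rose (log2 fold change 0.14, limma adjusted p = 0.034). With TMM scaling ARL2, CNOT11, STMN1 and MAPRE1 did not pass (limma adjusted p = 0.10, 0.11, 0.058 and 0.24). Without any 1 of the 4 libraries none of MZT2B, ARL2, CNOT11, STMN1 and MAPRE1 passed (limma adjusted p = 0.051 to 0.15), and TUBGCP2 passed only without control b (limma adjusted p = 0.047, otherwise 0.063 to 0.067). When low genes were not filtered out, none of these 6 genes passed, nor did TUBAL3 (limma adjusted p = 0.054 for TUBGCP2 to 0.13 for TUBAL3). With the library letter as a block, MAPRE1 and CNOT11 did not pass (limma adjusted p = 0.067 and 0.053).

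ACTB and ACTG1, the cytoplasmic actin genes, had larger log2 fold changes than any of the 10 tubulin genes. ACTB was at 1279 and 1259 RPKM in control and at 1052 and 1016 RPKM in ISO (log2 fold change -0.30, SE 0.036, limma adjusted p = 0.0086). ACTG1 was at 953 and 914 RPKM in control and at 736 and 732 RPKM in ISO (log2 fold change -0.35, SE 0.036, limma adjusted p = 0.0056). Both passed without any 1 of the 4 libraries, but neither passed when low genes were not filtered out (limma adjusted p = 0.092 for ACTB and 0.062 for ACTG1). The ratio of TUBB to ACTB was thus higher in ISO, at 0.434 and 0.443 in control and 0.484 and 0.484 in ISO. The ratio of TUBB4B to ACTB was 0.390 and 0.405 in control and 0.516 and 0.503 in ISO, and that of TUBA1B to ACTB was 0.679 and 0.713 against 0.771 and 0.742. None of these ratios overlapped between groups (exact two-sided permutation p = 0.333 each, n = 2, the smallest this design allows). ACTA2, smooth muscle actin, was at 1.17 to 1.76 RPKM and did not pass (limma adjusted p = 0.083), but it was called higher with a minimum mean RPKM of 1 (limma adjusted p = 0.045) and by limma-voom (log2 fold change 0.33, adjusted p = 0.039 from limma-voom). Limma-voom, which tested 4 actins, called ACTB, ACTG1 and ACTG2 lower (10.3% of all genes were lower and 8.04% higher in that fit). ACTA1, ACTC1 and ACTG2 were below a mean of 0.1 RPKM.

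**Figure D5:**
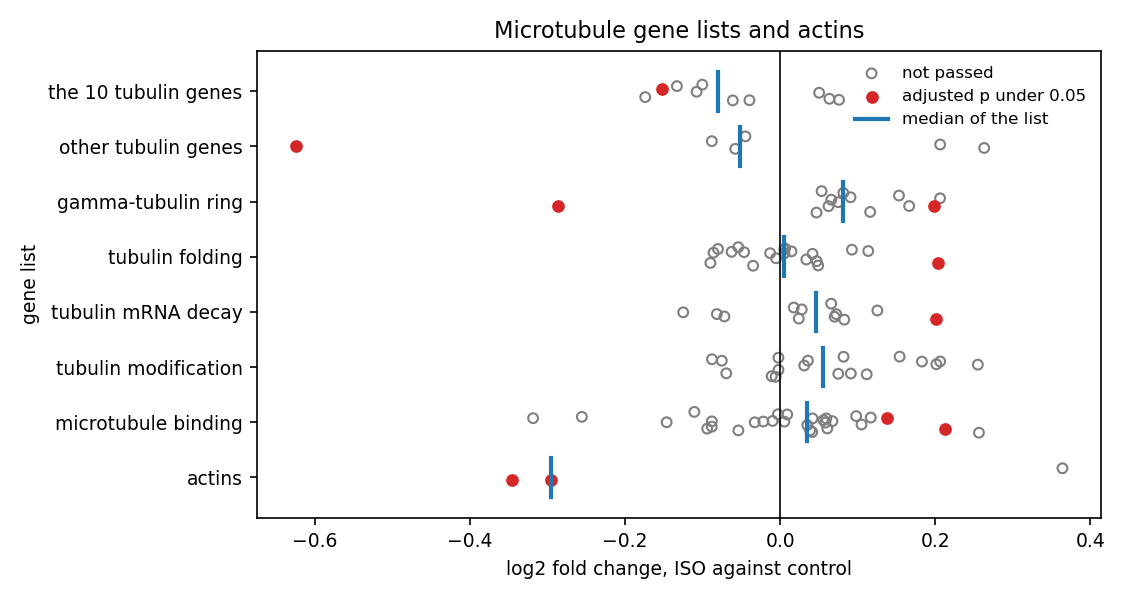
Log2 fold change of ISO against control (x axis) for the tested genes of each list (rows), filled red where the adjusted p is under 0.05, with the median of the list as a blue bar. TUBB is the filled point of the 10 tubulin genes at -0.15, and ACTB and ACTG1 lie further left at -0.30 and -0.35.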

How the data were processed

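Total RNA of T24 cells was sequenced as paired ends in 4 libraries. The authors aligned reads to hg38, counted them over gene exons and deposited linear RPKM that carry no TMM factor. The authors' group means in the table were not used. The labels' build and that of GENCODE v44 are both hg38, and RPKM times GENCODE exon length gave whole reads.

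The main test was limma 3.58.1 (R 4.3.3) on log2(RPKM + 0.1) with a variance trend, 2 ISO against 2 control libraries, in genes whose mean RPKM reached 0.1. Fold changes on this scale understate those of genes near the pseudocount. Limma was tested on simulated data in which every gene had the same dispersion and changed genes rose and fell evenly, unlike these libraries. That simulation therefore does not vouch for the calls above. TMM factors were computed with a trim of 30% on log ratios and 5% on levels. Alternatives were a pseudocount of 1 or 0.01, testing unfiltered genes, a minimum mean RPKM of 1, TMM and median-of-ratios scaling, limma-voom on recovered reads (mean of at least 10), the letters as a block, and leaving out each library, where the lone library is assumed to vary like the others. Coding sequences were read from hg38, and identity, windows and shares were computed with Python 3.11.15 and Biopython 1.88.

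The members, gene lists and tests were chosen with earlier results of these data known. Named are all 10 tubulin genes, the tested actins and other tubulins, and called genes of each list. Chosen after their values were seen were TTC5, SCAPER, TTL, CCT4, CCT5, CCT8, CNOT8, CAMSAP2, CAMSAP3, MAP4, MAP7D1, STMN3, MAP2, ACTG2 and the overlapping genes. The only tubulin pseudogene row (TUBA3FP) had a mean below 0.1 RPKM.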

Additional observations from a re-analysis of the deposited data

How the results depend on the processing

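The count of tubulin genes called lower was 1 as reported, 0 without the filter on low genes, 3 with a minimum mean RPKM of 1 (TUBB2B untested), 2 with median-of-ratios scaling, 5 with limma-voom and 0 to 0 with 1 library left out. None was called higher in any fit. Over all genes 2054 were called as reported, 349 without the filter and 435 to 598 with 1 library left out. Over all genes, calls split into 630 lower and 1424 higher as reported, 877 and 606 with TMM, 890 and 650 with median-of-ratios scaling and 1551 and 1209 with limma-voom. With a minimum mean RPKM of 1, which left fewer genes to test, calls over all genes also rose, to 742 lower and 1945 higher. Without the filter they were 161 lower and 188 higher. All 10 tubulin genes except TUBB2B kept the sign of their log2 fold change in every alternative. TUBB2B was 0.05 as reported, -0.0241 with limma-voom and -0.19 to 0.29 with 1 library left out. With 1 library left out, the difference in beta-tubulin share, in percentage points, ran from -0.137 to 0.00650 for TUBB3, from -0.00520 to 0.0412 for TUBB2A and from -0.00360 to 0.00898 for TUBB2B, and kept its sign for the other isotypes. By recovered reads it was -2.41 for TUBB and 2.82 for TUBB4B.

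The letters a and b were not taken to pair the libraries, since the difference of a and b in control went with that in ISO by a Pearson r of -0.126 across 6208 genes above 5 RPKM, which are not independent replicates. With the letter as a replicate block 1 tubulin gene was called lower (TUBB, adjusted p = 0.046 from limma) and 536 and 1126 of all genes were called lower and higher. With the letters crossed, added after the data were seen, 0 tubulin genes and 696 and 1625 of all genes were called. The cause of these shifts was not tested. For TUBB2B, at 41 to 56 reads, counting alone gives a coefficient of variation of 14.6% in ISO, and the observed one was 30.9%.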
